A study of Macaca mulatta with 19 samples.

Results

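The genes described here are the nuclear-encoded subunits of the mitochondrial respiratory chain, as measured in luteinized granulosa cells of the rhesus macaque. Members were chosen by symbol: any row of the count table named NDUFA, NDUFB, NDUFC, NDUFS or NDUFV with a number, UQCR, COX4 to COX8, SDHA to SDHD, or ATP5, with a median of at least 1 CPM (counts scaled to a common library total) over 19 libraries. The rule matched 48 of 32386 gene rows, and 39 passed the level. Of these, 34 are structural subunits: 17 of complex I, 3 of complex II, 2 of complex III, 5 of complex IV and 7 of complex V. The genes that the mitochondrial DNA itself encodes were left out.

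Granulosa cells were aspirated from the single follicle that each animal had selected, close to ovulation in a controlled ovulation cycle. Since about menarche, for about 3.5 years, each animal had carried an implant with cholesterol (C) or testosterone (T, set to reach 4 to 5 fold the C level) and had eaten chow or a Western-style diet (WSD). The groups were Chow+C (4 animals), Chow+T (4), WSD+C (5) and WSD+T (6), so the Chow+C controls also carried an implant. Per the labels, 10 animals were enrolled per treatment and 7 to 10 underwent the cycle. The oocyte of each follicle was also classed: 8 were at metaphase I (MI), 4 at metaphase II (MII), 6 were degenerating and 1 was at the germinal vesicle stage (GV). The classes were unevenly spread over the groups. MI follicles came from Chow+C (3), WSD+C (3) and WSD+T (2), MII follicles from Chow+T (2), Chow+C (1) and WSD+T (1), and degenerating ones from WSD+T (3), WSD+C (2) and Chow+T (1), while the GV follicle was from Chow+T. The labels name no sorting step, and each library is from 1 animal.

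The respiratory chain sits in the inner mitochondrial membrane. Complex I takes electrons from NADH and complex II takes them from succinate, both pass them through ubiquinone to complex III and cytochrome c, and complex IV hands them to oxygen. Complexes I, III and IV pump protons, and complex V, the ATP synthase, uses the gradient to make ATP. All subunits of complex II and most subunits of the other complexes are encoded in the nucleus and imported. In granulosa cells that luteinize, mitochondria have a further task, since CYP11A1 cleaves cholesterol to pregnenolone inside them.

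The 9 matching rows below the level were UQCRH, ATP5L, ATP5J, NDUFA2, NDUFA4L2 and COX7B2, each with a median of 0 CPM, COX4I2 at 0.03 CPM, ATP5F1 at 0.05 CPM and a second COX7A2L row at 0.10 CPM. Just inside the limit was COX7A2L at 1.08 CPM, and the next member, ATP5S, stood well above it at 3.13 CPM. A low row need not mean an unexpressed gene here. ATP5J encodes a coupling subunit of complex V and has a median of 0 CPM in its own row, with at most 2 counts in a library, while a row without a symbol, which the reference table of gene names calls ATP5PF, the current name of the same gene, held 44.5 to 118 CPM. Likewise, a row that the files name FAAH has an identifier that the reference table pairs with UQCRH, so the 0 of the UQCRH row is uncertain. In all, 16 further subunits stood in such rows without a symbol (among them NDUFA1, NDUFA6, NDUFA9, NDUFB1, NDUFB8, NDUFS4, NDUFS8, SDHD, UQCRC2, NDUFA4, COX7B, COX7C, ATP5F1B, ATP5PD and ATP5PF). They fall outside the symbol rule and are described apart from the 34. The other 5 of the 39 rows are not counted among the subunits. COX4NB is now called EMC8 and belongs to a complex of the endoplasmic reticulum, ATP5S and ATP5SL encode the related proteins DMAC2L and DMAC2, COX7A2L is a supercomplex assembly factor, and the identifier of the COX8A row is paired with OTUB1 in the reference table, so its identity is uncertain.

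Libraries held 28832132 to 56385679 counts in genes, with a median of 40433333. The 34 subunits took 0.174% to 0.370% of them, with a median of 0.313%. The lowest values of depth, of the share of reads assigned to genes (49.1%, next lowest 55.9%, highest 69.1%) and of the share of the subunits all belonged to Chow+C 2, whose mitochondrially encoded rows took the highest share of gene counts (17.9%, against 0.795% to 11.4%). A biological coefficient of variation of 0.583 across the table was far above counting error at this depth. Many of these subunits have processed pseudogenes, and how reads with several matches were shared among copies is not given in the sources used here, so small rows such as COX7A2L are uncertain.

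The subunits moved together from library to library. The first principal component of their log2 CPM carried 77.2% of the variance, and all 34 subunits loaded on it with the same sign, with loadings from 0.02 for NDUFB2 to 0.28 for COX7A2. The first component of all 15019 genes tested carried 34.4%, but no other set of like size and level was drawn for comparison. For the subunits the value was 70.5% without Chow+C 2 and 61.2% without Chow+C 2 and WSD+C 4, in both cases with all 34 loadings of 1 sign. The median SD of log2 CPM over libraries was 0.34 for the 34 subunits and 0.55 for all genes tested, which were not matched for level. Without those 2 libraries the values were 0.22 and 0.45. Not every subunit was steady: the SD of NDUFB5 and of COX7A2 exceeded that of 54.1% and 54.6% of the genes tested. These are descriptions over libraries that share the same normalization, and no test is attached to them.

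**Figure D1:**
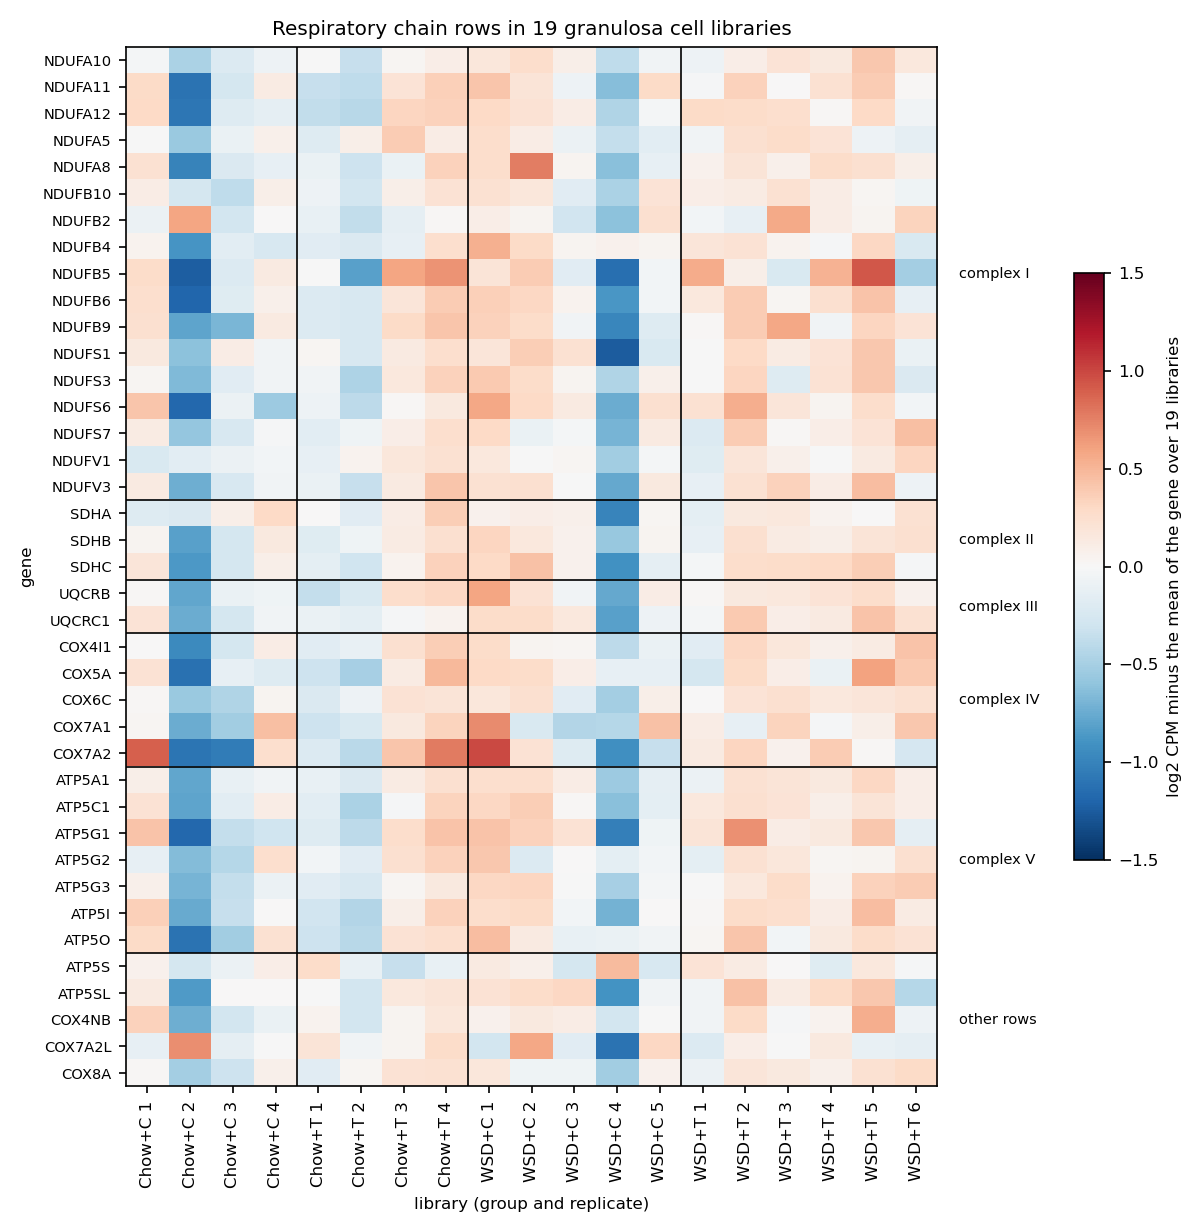
Log2 CPM of each of the 39 rows in each of 19 libraries, minus the mean of that row over the libraries; rows are ordered by complex and columns by treatment group and replicate. The columns of Chow+C 2 and WSD+C 4 are blue in nearly every subunit, with NDUFB2 red in Chow+C 2.

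Chow+C 2 held the lowest value of 24 subunits and WSD+C 4 that of the other 10. The highest values were spread over 9 libraries, with 10 subunits each in WSD+C 1 and WSD+T 5, 4 each in WSD+C 2 and WSD+T 6, 2 in Chow+T 4 and 1 each in Chow+C 2, Chow+T 3, WSD+T 2 and WSD+T 3. NDUFB2, a small accessory subunit of the membrane arm of complex I, was the exception in Chow+C 2: it stood at 38.7, 62.1, 34.1 and 41.5 CPM in the 4 Chow+C libraries, so that Chow+C 2 was the highest of all 19. NDUFV1, the flavoprotein that binds NADH, was the steadiest subunit (SD 0.20), at 92.2, 96.8, 102 and 105 CPM in Chow+C, and SDHA, the flavoprotein of complex II, stood at 168, 166, 205 and 237 CPM. Neither was set apart in Chow+C 2, where the mean log2 CPM of the 34 subunits lay 0.76 below the average library.

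The 2 low libraries differed in the other cells they showed. WSD+C 4, from a follicle with a degenerating oocyte, had the lowest score of the granulosa list (mean log2 CPM 5.95, against 7.08 to 8.42 elsewhere) and the highest scores of the erythroid list (9.11, against -2.64 to 2.99) and the smooth muscle list (5.92, against 0.01 to 2.34). In it STAR, which brings cholesterol into mitochondria, was at 225 CPM against a median of 2495. HBB (beta globin) was at 96370 CPM against 309.9, and ACTA2 (smooth muscle actin) at 1941 CPM against 10.5. Of the granulosa list, CYP11A1, HSD3B2, CYP19A1, LHCGR, INHA, NR5A1 and FST were, like STAR, lowest in WSD+C 4. AMHR2, NR5A2, GATA4 and SERPINE2 of that list lay within the range of the other libraries. FSHR, of the same list, was highest in WSD+C 4, at 81.0 CPM against at most 8.38 CPM elsewhere. Oocyte genes were highest there too, with BMP15 at 67.6 CPM, against at most 4.18 CPM elsewhere. Chow+C 2 lay within the range of the other libraries on these lists, with a granulosa score of 7.59, a smooth muscle score of 1.60 and an erythroid score of -1.05. Of the granulosa list, 13 of 15 genes were found, and 12 of these reached 1 CPM in every library. The exception was LHCGR, at 0.42 CPM in WSD+C 4. So low a limit does not show how far a library was made up of the labelled cell type. In bulk samples, fewer granulosa cells and less RNA of these genes per cell cannot be told apart. The part of cell mixture in the low values of WSD+C 4 was not tested.

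Averaged over the 34 subunits, log2 CPM was 5.74 ± 0.40 in Chow+C (SD, n = 4), 5.96 ± 0.27 in Chow+T (n = 4), 5.94 ± 0.37 in WSD+C (n = 5) and 6.11 ± 0.10 in WSD+T (n = 6). WSD+T was therefore both the highest group and the one with the least spread, with all 6 libraries between 5.97 and 6.23. Its range lay inside those of Chow+T, which reached 6.26, and of WSD+C, which reached 6.29. Without Chow+C 2 the Chow+C mean was 5.92 ± 0.21 (n = 3), and without WSD+C 4 the WSD+C mean was 6.09 ± 0.17 (n = 4), close to WSD+T. Each complex showed the same order at its ends, with Chow+C lowest and WSD+T highest: 5.43 and 5.78 for complex I, 5.58 and 5.86 for complex II, 6.50 and 6.90 for complex III, 5.44 and 5.84 for complex IV, and 6.55 and 6.97 for complex V. Chow+T and WSD+C, between them, differed by less than the SD of either group in every complex. The complexes were scored on the same libraries, and Chow+C 2 was the lowest control in each, so they are not separate observations. In complex II the other Chow+C libraries stood at 5.74, 5.58 and 5.91, around the WSD+C mean of 5.67. The order thus depended on Chow+C 2 there.

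**Figure D2:**
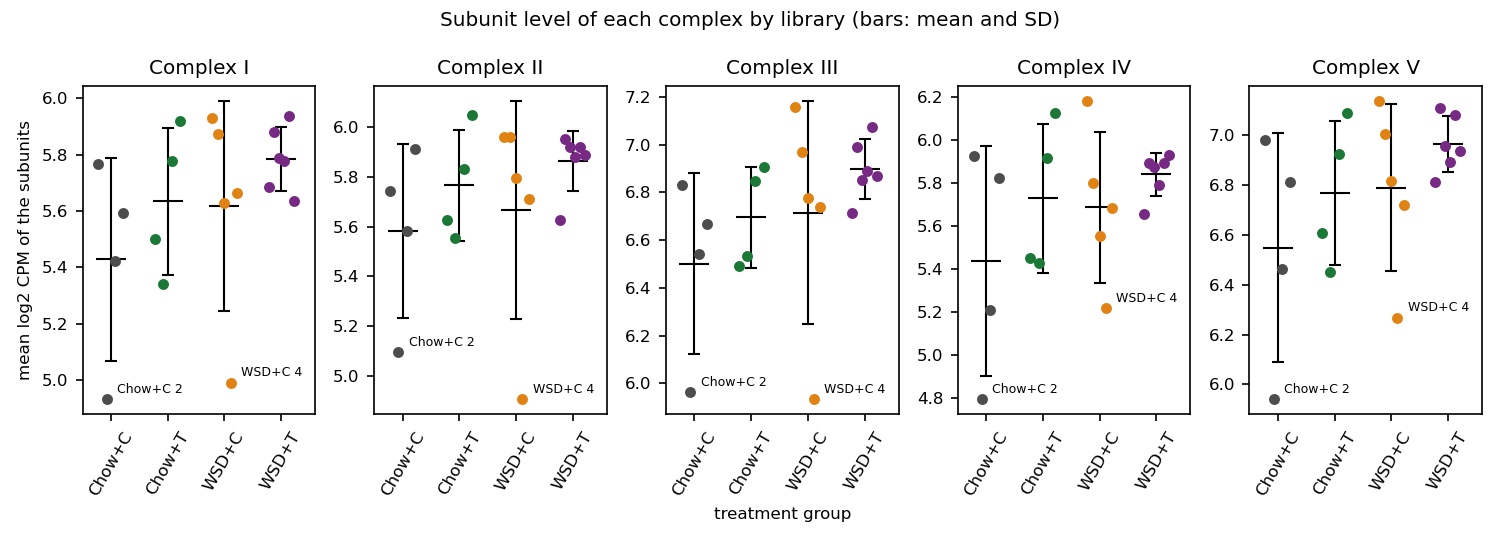
Mean log2 CPM of the subunits of each complex in each library (points), by treatment group, with the group mean and SD (bars). Chow+C 2 and WSD+C 4 are the lowest points of their groups in all 5 panels, and the 6 WSD+T libraries lie close together, between 5.63 and 5.94 for complex I.

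Differences between groups were tested gene by gene with edgeR's quasi-likelihood test, adjusted over all genes tested (Benjamini-Hochberg, threshold 0.05). None of the 39 members passed in any of 11 comparisons, where 0% of all genes tested passed as well. DESeq2 and limma voom also called none of the 39, although DESeq2 called 801 other genes between degenerating and MI follicles. The group differences below are thus fitted estimates, most of which have intervals that include 0. In the 5 comparisons of 2 treatment groups and the 3 of MI, MII and degenerating follicles, no subunit had libraries that did not overlap. The same count was not made over all genes tested, so it is not read as a trait of the subunits.

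Testosterone on chow, Chow+T against Chow+C, gave 0 called genes (0%) and 0 subunits at an unadjusted p under 0.05, against 7.18% of all genes. The median fitted log2 fold change of the 34 subunits was 0.21, and 33 of them were above 0, while the median of all genes was -0.02, with 48.2% above 0. The one subunit below 0 was NDUFB2 at -0.24 (95% CI -0.69 to 0.21). Without Chow+C 2 the median of the subunits was 0.04 and 22 were above 0, and without TMM scaling it was 0.12. In the same contrast 11 of 11 macrophage genes were above 0, with a median of 2.16, but 1 of 11 without Chow+T 2 (median -0.22). Of the leukocyte genes 7 of 10 were above 0 (median 0.66), but 1 of 10 without Chow+T 2 (median -0.79). The mitochondrially encoded rows had 0 of 12 above 0 (median -0.96), and 8 of 12 without Chow+C 2 (median 0.37). Some of these rows were near 0 in single libraries of both groups. MT-CO3 was at 5.09, 29886, 10.8 and 10334 CPM in Chow+C and at 11349, 3.75, 6159 and 4283 CPM in Chow+T. The reason for that split was not tested, so the fold changes of these rows are not read as an effect of testosterone. The smallest p was that of ATP5G2, which encodes the c subunit of the ATP synthase rotor (0.31, SE 0.20, adjusted p = 0.738).

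The diet under cholesterol, WSD+C against Chow+C, gave 0 called genes (0%) and a median of 0.20 over the subunits, with 32 of 34 above 0 against 52.6% of all genes. NDUFB4, an accessory subunit of the membrane arm of complex I, was the one subunit at an unadjusted p under 0.05, a level that 2.50% of all genes reached in the upward direction. It stood at 56.5, 29.4, 48.6 and 46.2 CPM in Chow+C and at 78.9, 66.3, 56.2, 56.7 and 56.2 CPM in WSD+C. The ranges met only between 56.2 and 56.5 CPM, the top of Chow+C and the bottom of WSD+C. The fitted log2 fold change was 0.48 (SE 0.18, adjusted p = 0.830), or 0.32 without Chow+C 2. At that unadjusted level stood 0 subunits without Chow+C 2, 0 without WSD+C 1 and 0 among the MI follicles alone. The share of all genes is not given for those fits, so these counts are not read as a trait of the subunits. Without WSD+C 4 there were 6, all higher, against 1.90% of all genes in that direction in that fit. Other cells moved too, with 11 of 11 macrophage genes (median 3.21) and 8 of 8 erythroid genes (median 4.87) above 0, and 8 of 11 (0.50) and 0 of 7 (-1.10) without WSD+C 4. The median of the subunits was 0.04 without Chow+C 2, 0.31 without WSD+C 4 and 0.44 among the MI follicles alone, where Chow+C 2 remained among the controls.

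Both exposures together, WSD+T against Chow+C, gave 0 called genes (0%) and the largest median of the 3 comparisons with Chow+C, 0.34, with all 34 subunits above 0. The same controls served all 3, so their signs are not independent of each other. Over all genes the median was -0.001 and 49.9% were above 0. The subunits ranged from 0.07 for SDHA to 0.50 for ATP5G1. At an unadjusted p under 0.05 stood 4 of the 34, all higher, against 3.06% of all genes in that direction: ATP5G3 and NDUFA10, COX6C and NDUFB4. Without Chow+C 2 the median was 0.19 with 33 of 34 above 0, and none of the 34 reached that level. Without Chow+C 1, the control with the highest subunit level, it was 0.49 and 15 of the 34 reached it, all higher, against 4.72% of all genes in that direction in that fit, so the count rested on which control was kept. The share of all genes at that level without Chow+C 2 is not given here, so the count in that fit is not read as a trait of the subunits. Markers of other cells moved in the same contrast. All 11 macrophage genes found were above 0, with a median of 5.49, as were all 10 leukocyte genes tested, with a median of 3.43. The macrophage score ran from -1.54 to -0.42 in Chow+C and from -2.10 to 7.22 in WSD+T, with the highest value in WSD+T 6, where CD68 was at 637 CPM. MARCO, another macrophage gene, was at 0 in 3 of the 4 controls. Without WSD+T 6 the macrophage median was 1.54 and the leukocyte median 0.88, and the median of the subunits was 0.35, with 34 of 34 above 0. The part of other cells in these values was not tested.

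**Figure D3:**
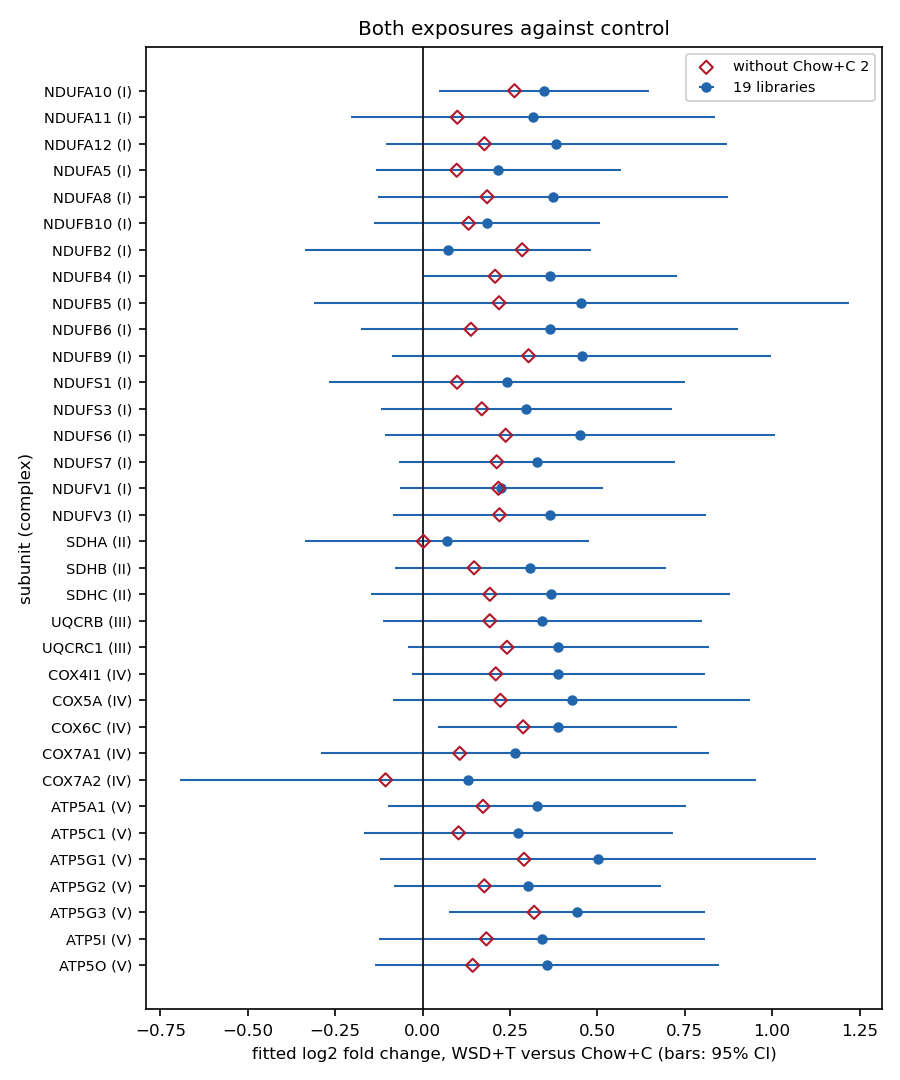
Fitted log2 fold change of each subunit, WSD+T against Chow+C (points, with 95% confidence intervals), and the estimate without Chow+C 2 (open diamonds). All 34 points lie to the right of 0, most intervals include 0, and the diamonds lie closer to 0 for all subunits but NDUFB2.

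The 4 subunits with the smallest p in that comparison differed in how far their libraries overlapped. They were picked by that p, so their separation of these groups is no further support. ATP5G3, another gene for the c subunit, was at 74.6, 43.7, 55.3 and 66.5 CPM in Chow+C and from 70.4 to 92.0 CPM in WSD+T, with a median of 82.1. Its log2 fold change was 0.44 (SE 0.17, adjusted p = 0.717). NDUFA10, an accessory subunit of complex I, was at 62.2, 45.6, 55.0 and 60.04 CPM in Chow+C and from 60.15 to 83.6 CPM in WSD+T, with a median of 70.2. In both genes only Chow+C 1 reached into the WSD+T range. COX6C, a subunit of complex IV, was at 74.5, 49.7, 53.6 and 75.4 CPM in Chow+C and from 73.9 to 86.7 CPM in WSD+T, with a median of 84.0; 2 controls overlapped the lowest WSD+T library. NDUFA10 gave 0.35 (SE 0.14) and COX6C 0.39 (SE 0.16), both with an adjusted p of 0.717. NDUFB4 overlapped more widely, at 46.3 to 67.3 CPM in WSD+T, and gave 0.37 (SE 0.17).

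Within each diet or implant the estimates were smaller. Testosterone on the Western-style diet gave 0 called genes (0%), a median of 0.13 over the subunits and 33 of 34 above 0, and the median was 0.02 without WSD+C 4. The diet under testosterone gave 0 called genes (0%), a median of 0.14 and 30 of 34 above 0, with 0.06 without Chow+T 2 and 0.26 without Chow+T 4. No subunit reached an unadjusted p under 0.05 in either, against 3.86% and 4.97% of all genes. Averaged over both diets, testosterone gave 0 called genes (0%) and a median of 0.16, with 34 of 34 above 0, and 0.02 without Chow+C 2 and WSD+C 4. Averaged over both implants, the diet gave 0 called genes (0%) and a median of 0.17, with 33 of 34 above 0 and 0.09 without Chow+C 2. There NDUFB4 (0.31, SE 0.12) and ATP5G3 (0.27, SE 0.12) had an unadjusted p under 0.05, against 5.16% of all genes in that direction, with adjusted p of 0.701 and 0.708. The count was 8 without WSD+C 4, against 2.43% of all genes in that direction, and ran from 1 to 8 over single libraries left out. The share of all genes is not given for the other fits, so that range is not read as a trait of the subunits.

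The interaction asks whether testosterone and diet together differed from the sum of both. It gave 0 called genes (0%) and 0 subunits at an unadjusted p under 0.05, against 4.52% of all genes. The median of the subunits was -0.06 with 10 of 34 above 0. It was 0.09 with 28 above 0 without Chow+C 2 and -0.17 with 2 above 0 without WSD+C 4, so its direction depended on single libraries. NDUFB2 had the highest estimate, 0.48 (95% CI -0.11 to 1.07), and NDUFB4 the lowest, -0.33 (95% CI -0.85 to 0.19).

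**Figure D4:**
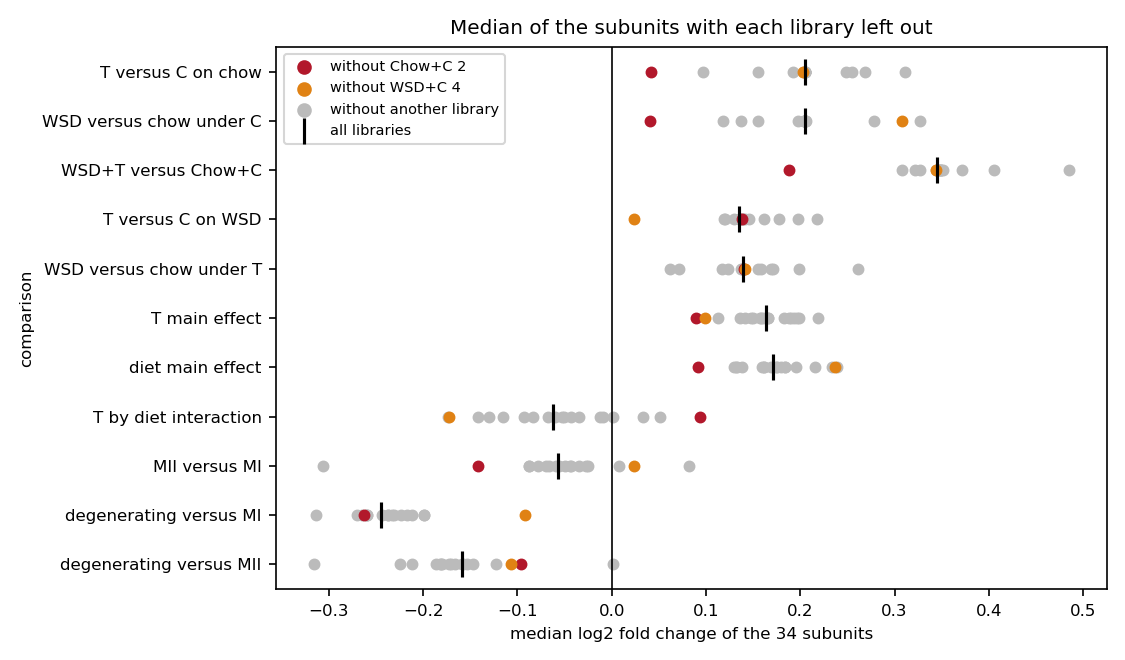
Median fitted log2 fold change of the 34 subunits in each of 11 comparisons with all libraries (black bars) and with each library left out in turn (points). Leaving out Chow+C 2 (red) moved the 3 comparisons with Chow+C towards 0, to 0.04, 0.04 and 0.19, and leaving out WSD+C 4 (orange) moved testosterone on the Western-style diet to 0.02 and degenerating against MI to -0.09.

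By complex, in the comparison of WSD+T with Chow+C, the medians were close: 0.35 for complex I, 0.31 for complex II, 0.37 for complex III, 0.39 for complex IV and 0.34 for complex V. Among the catalytic subunits of complex I, NDUFS1, which holds iron-sulfur clusters of the electron path, was at 129, 76.1, 126 and 112 CPM in Chow+C and from 109 to 155 CPM in WSD+T (0.24, SE 0.24). NDUFV1 gave 0.22 (SE 0.14) there, and NDUFB5, the most variable subunit of complex I, 0.45 (SE 0.36). NDUFB5 was lowest in Chow+C 2 (36.7 CPM) and WSD+C 4 (39.2 CPM) and highest in WSD+T 5 (164 CPM), and from 60.3 to 164 CPM within WSD+T alone.

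In complex II, SDHA gave 0.07 (95% CI -0.34 to 0.48), and its WSD+T libraries, at 174 to 227 CPM with a median of 207, lay within the Chow+C range. SDHC, a membrane anchor, was at 12.8, 6.17, 9.36 and 12.0 CPM in Chow+C and from 11.02 to 14.6 CPM in WSD+T (0.37, SE 0.24). SDHB, the iron-sulfur subunit, gave 0.31 (SE 0.18). In complex III, UQCRC1, a core subunit, was at 194, 101, 140.1 and 163 CPM in Chow+C and from 165 to 227 CPM in WSD+T (0.39, SE 0.20), and UQCRB gave 0.34 (SE 0.22).

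In complex IV, COX4I1, the usual form of the largest nuclear-encoded subunit, was at 172, 88.4, 144 and 186 CPM in Chow+C and from 152 to 232 CPM in WSD+T (0.39, SE 0.20). COX5A gave 0.43 (SE 0.24). COX7A2 was the most variable of all 34 subunits (SD 0.60 of log2 CPM), at 75.5, 18.9, 19.6 and 48.2 CPM in Chow+C, and its difference was 0.13 (95% CI -0.69 to 0.95). Its low values thus included Chow+C 3 as well as Chow+C 2. In complex V, ATP5A1, the alpha subunit of the catalytic head, was at 674, 369.9, 589.5 and 613 CPM in Chow+C and from 598 to 787 CPM in WSD+T (0.33, SE 0.20). ATP5G1 was at 44.1, 14.4, 25.4 and 26.4 CPM in Chow+C and from 29.7 to 52.6 CPM in WSD+T (0.50, SE 0.30, adjusted p = 0.719).

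Oocyte classes were compared in 18 libraries, with treatment group as a term and the single GV library left out. The mean log2 CPM of the 34 subunits was 5.98 ± 0.37 in MI (SD, n = 8), 5.93 ± 0.18 in MII (n = 4) and 5.89 ± 0.29 in degenerating follicles (n = 6), and 6.26 in the GV library. MII against MI gave 0 called genes (0%), a median of -0.06 over the subunits and 11 of 34 above 0. That median ran from -0.31 without Chow+C 4 to 0.08 without WSD+T 1, and 0 subunits had an unadjusted p under 0.05, against 3.92% of all genes. COX7A1 had the highest estimate (0.47, 95% CI -0.15 to 1.09).

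Degenerating against MI gave 0 called genes (0%), a median of -0.24 over the subunits and 31 of 34 below 0, against a median of 0.02 over all genes, 52.0% of them above 0. ATP5G1 (-0.60, SE 0.25, adjusted p = 0.300) and NDUFS1 (-0.49, SE 0.21, adjusted p = 0.318) had an unadjusted p under 0.05, a level that 4.45% of all genes reached in the downward direction. ATP5G1 ran from 14.4 to 52.6 CPM in MI, with a median of 42.3, and from 15.98 to 36.2 CPM in degenerating follicles, with a median of 30.4. NDUFS1 ran from 76.1 to 155 CPM in MI, with a median of 134, and from 48.8 to 134 CPM in degenerating follicles, with a median of 114. In both genes the lowest MI library was Chow+C 2 and the lowest degenerating library was WSD+C 4. Only COX7A1 (0.19), NDUFB2 (0.14) and ATP5G2 (0.02) were above 0.

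**Figure D5:**
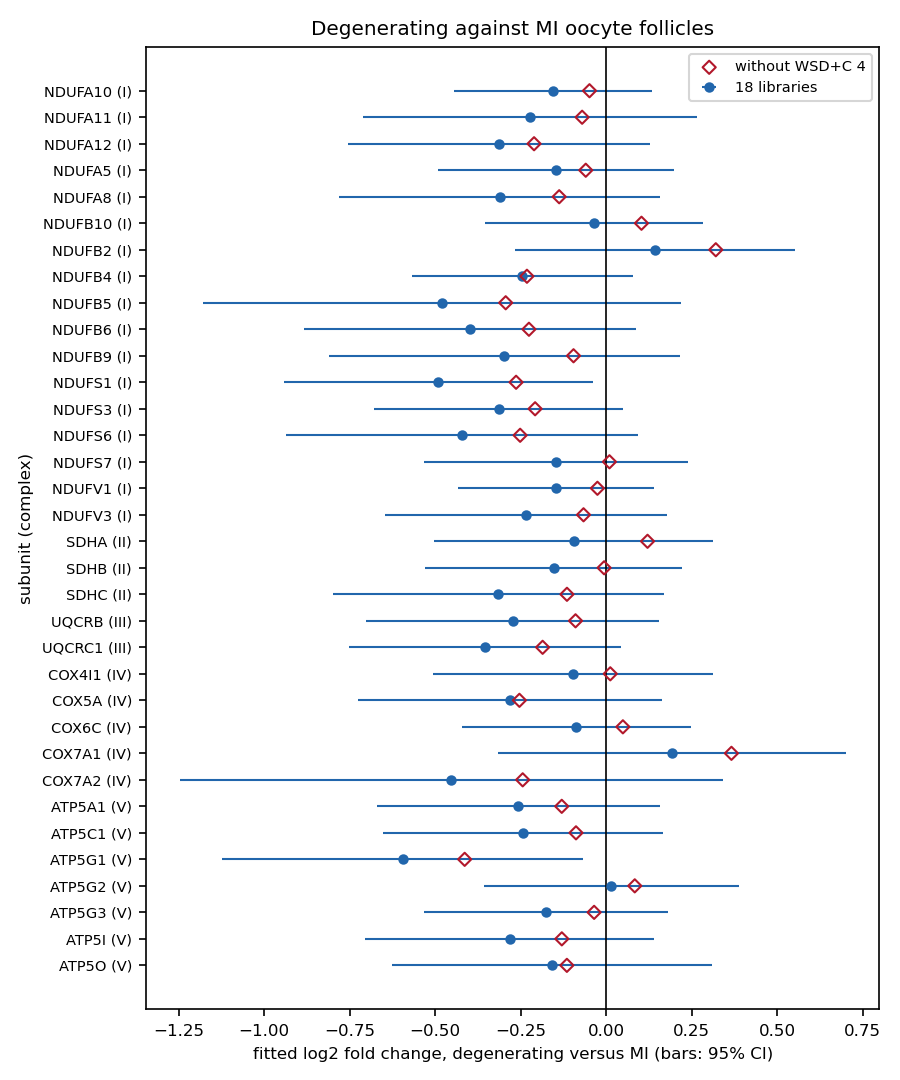
Fitted log2 fold change of each subunit, degenerating against MI follicles (points, with 95% confidence intervals), and the estimate without WSD+C 4 (open diamonds). Of 34 points 31 lie left of 0, the intervals of ATP5G1 and NDUFS1 end below 0, and the diamonds of all subunits lie further right.

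Without WSD+C 4 the median was -0.09 and 8 subunits were above 0; ATP5G1 was then at -0.41 and NDUFS1 at -0.26, and no subunit had an unadjusted p under 0.05. Without Chow+C 2, the low library on the MI side, the median was -0.26 and 8 subunits reached that level, all lower, against 7.14% of all genes in that direction in the same fit. The share of all genes without WSD+C 4 is not given here, so the count in that fit is not read as a trait of the subunits. Other cells differed between degenerating and MI follicles too. The leukocyte list, of which 11 of 12 genes were found and RAC2 was at 0 in every library, had a score of 1.48 ± 1.22 in MI (-0.37 to 3.29) and 4.34 ± 2.61 in degenerating follicles (0.86 to 7.60), and the granulosa score was 7.94 ± 0.26 in MI and 7.40 ± 0.75 in degenerating follicles. SRGN, which the leukocyte score includes, was lowest in WSD+C 4, at 139 CPM against at least 530 CPM elsewhere. In this contrast 9 of 10 leukocyte genes were above 0. Of the macrophage genes 11 of 11 and of the erythroid genes 8 of 8 were above 0, with medians of 4.96 and 4.17. Single libraries carried much of this: without WSD+C 4 the erythroid median was 1.83 (7 genes tested), without WSD+T 6 the macrophage median was 2.83, and without both the macrophage median was 0.89 (9 genes tested). Adjusted for that leukocyte score, the median of the subunits was -0.15, and without WSD+C 4 and WSD+T 6, the libraries richest in other cells, it was -0.10. By treatment the leukocyte score ran from 0.90 to 3.29 in Chow+C, 0.86 to 3.97 in Chow+T, -0.37 to 7.00 in WSD+C and 2.31 to 7.60 in WSD+T. Degenerating against MII gave 0 called genes (0%), 0 subunits at an unadjusted p under 0.05 against 3.38% of all genes, and a median of -0.16, with 32 of 34 below 0. The median was 0.001 without Chow+C 4.

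Several subunits exist in tissue-specific forms. COX4I2, the form of lung and of cells short of oxygen, did not exceed 0.47 CPM, a value found in WSD+C 4. COX7B2, the testis form, reached 0.02 CPM in a single library, and NDUFA4L2, which hypoxia induces in many cells, was at 0 in all 19. COX7A1, the heart and muscle form, was present, at 9.07 to 24.9 CPM. It made up 27.7% ± 6.1 (SD, n = 19) of the CPM of COX7A1 and COX7A2 together, from 17.0% in Chow+C 1 to 39.3% in WSD+C 5, with group means between 25.2% and 28.7%. These shares are not corrected for gene length, so they compare libraries and not the genes. Of the genes for the identical c subunit, ATP5G2 held a median of 67.7% of the CPM of ATP5G1, ATP5G2 and ATP5G3, from 59.1% in WSD+C 2 to 74.9% in WSD+C 4, and ATP5G1 held 10.5%, with its lowest share, 6.11%, in WSD+C 4.

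The 16 subunits in rows without a symbol, which the rule did not use, had a mean log2 CPM of 5.81 ± 0.42 in Chow+C, 5.96 ± 0.33 in Chow+T, 5.97 ± 0.40 in WSD+C and 6.14 ± 0.12 in WSD+T. Their medians were 0.29 for WSD+T against Chow+C, with 16 of 16 above 0, and -0.26 for degenerating against MI, with 15 of 16 below 0. None passed the adjusted threshold. At an unadjusted p under 0.05 were NDUFA4, a subunit of complex IV despite its name (0.45 for the diet, adjusted p = 0.701, where 5.16% of all genes were higher at that level), and, for degenerating against MI, NDUFA9 (-0.39, adjusted p = 0.344) and ATP5F1B, the catalytic beta subunit of the ATP synthase (-0.46, adjusted p = 0.346), where 4.45% of all genes were lower at that level. These rows come from the same libraries and share Chow+C 2 and WSD+C 4 with the 34.

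Genes that build or serve the chain were listed apart. No assembly factor (41 of 43 rows tested), electron carrier or coenzyme Q gene (13 of 14), regulator of mitochondrial biogenesis (13 of 14) or enzyme of the citric acid cycle (16 of 16) passed the adjusted threshold in any comparison. For WSD+T against Chow+C, 31 of 41 assembly factors, 11 of 13 carriers and 14 of 16 cycle enzymes were above 0, with medians of 0.18, 0.15 and 0.25, while 5 of 13 biogenesis regulators were, with a median of -0.09. PPARGC1A, the coactivator that drives mitochondrial biogenesis in many tissues, had the smallest p of its list for testosterone on chow, at -1.63 (SE 0.57, adjusted p = 0.658). Its level was low, at 1.68, 4.91, 3.76 and 1.56 CPM in Chow+C and at 1.25, 1.11, 0.81 and 0.65 CPM in Chow+T. The value of Chow+C 2, 4.91 CPM, was the highest of all 19 libraries. Of the biogenesis list, 4 of 13 had an unadjusted p under 0.05 for testosterone on chow, 2 higher and 2 lower, against 7.18% of all genes. For degenerating against MI, 34 of 41 assembly factors were below 0, with a median of -0.25. The smallest p values belonged to ACAD9, a complex I assembly factor (-0.50, adjusted p = 0.169), and COX15, which makes heme A for complex IV (-0.42, adjusted p = 0.178).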

How the data were processed

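RNA of luteinized granulosa cells from 19 rhesus macaques was made into polyA-selected, non-directional libraries, per the labels' protocols. The authors deposited raw read counts per gene in 1 table. Trimmomatic and STAR were used, per the submitters' processing notes; no source used here gives their versions, the genome build or the counting settings. Symbols stood beside 21539 of 32386 gene rows; 4 classes of unassigned reads (30.9% to 50.9% of all reads) were left out. Since the libraries carry no strand, overlapping genes may share reads.

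Counts were analysed with edgeR 4.0.16 in R 4.3.3. Genes were kept by filterByExpr (minimum count 10, total 15), libraries were scaled by TMM, and the robust quasi-likelihood test (two-sided) was adjusted by Benjamini-Hochberg over all genes tested, 15019 for treatment (19 libraries in 1 fit of 4 groups) and 14976 for oocyte class (18 libraries, treatment group as a term). The code was tested on simulated counts with planted changes larger than any given here for a subunit. That test does not bear on the power to call differences of the size seen in the subunits. CPM in the text are TMM-scaled, except the medians set against the member limit, which use plain gene totals; log2 CPM use a prior count of 1, and a score is the mean log2 CPM of a list. Intervals and p-values rest on the spread between animals. No gene lengths were used, so levels are not compared between genes. DESeq2 1.42.0, limma 3.58.1, other scalings, no filter, covariates and leaving out each library were tried as alternatives; leaving out Chow+C 2 with WSD+C 4, leaving out 4 libraries low in MT-CO3, and using all 39 rows were added after the data were seen.

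The members and gene lists were chosen with earlier results of these data known. Genes were named if they passed the threshold, had the 2 smallest p of their complex against Chow+C or between oocyte classes, belonged to a core panel or to tissue forms, were the most or least variable of their complex, or lay near the CPM limit; the most relevant are given with values.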

Additional observations from a re-analysis of the deposited data

Results flagged for a closer look

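Among 294 sets of values, each from a group or class of 4 to 8 libraries, tested for a library far from the rest (Dixon's 95% limit), 16 stood out. Chance would give about 1 in 20 if the sets were independent. They are not, since each quantity was tested by group and by class over the same libraries and the subunits moved together. The count therefore cannot be set against that rate. Of the 16, 7 belonged to Chow+C 2 and 5 to WSD+C 4. Among MI follicles, Chow+C 2 was apart in the share of gene counts in the subunits (0.174%, next 0.290%), in the share of mitochondrially encoded rows (17.9%, next 6.21%), in the complex II score (5.10, next 5.58), and in NDUFA12 (11.2 CPM, next 21.0), NDUFS1 (76.1 CPM, next 126) and ATP5A1 (369.9 CPM, next 589.5), while NDUFB2 was high there (62.1 CPM, next 44.1). WSD+C 4 was apart in the complex I score among degenerating follicles (4.99, next 5.50), and in the complex II score (4.91) and SDHA (96.9 CPM, next 194 and 196) both among degenerating follicles and within WSD+C. Among MII follicles Chow+T 2 was low in NDUFB10 (41.0 CPM, next 52.8) and in ATP5I (43.6 CPM, next 59.6). WSD+T 1 was low in the complex II score within WSD+T (5.63, next 5.88), and WSD+C 1 was high in COX7A1 among MI follicles (24.9 CPM, next 16.2).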

How the results depend on the processing

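In all, 199 results were recomputed under the alternatives, which gave 5948 values. No member passed the adjusted threshold under any of them, and 5941 values moved by less than 1 SD between libraries or kept their side of the threshold. An SD between libraries is large beside these medians, so this count does not show that they were stable. The median for testosterone on chow, 0.21 with all libraries and 0.04 without Chow+C 2, is among the 5941. So is the interaction, at -0.06 and 0.09. The 7 that moved more were single genes or complex medians, such as complex II for MII against MI, at -0.32 without Chow+C 4, or NDUFS6 for the diet under cholesterol, at 0.99 without the 4 libraries low in MT-CO3. Without TMM the median of the subunits for testosterone was 0.12 on chow, 0.07 on the Western-style diet and 0.09 over both. Over single libraries left out, the median ran from 0.04 to 0.31 for testosterone on chow, 0.04 to 0.33 for the diet under cholesterol, 0.19 to 0.49 for WSD+T against Chow+C and -0.31 to -0.09 for degenerating against MI. Without the 4 libraries low in MT-CO3, testosterone on chow gave 0.43 and the diet under testosterone 0.04. Of the Chow+C controls that fit kept only Chow+C 4 and Chow+C 2, the library with the lowest subunit level. This limits the 0.43 and the value of NDUFS6 above. Over all genes, edgeR called 0 between degenerating and MI follicles, 574 without the treatment term and 226 without Chow+T 1. DESeq2 called 801 there, and in the other comparisons 8 or fewer. limma called 0 in each. No paired analysis was possible because the replicate numbers follow the order of the samples and tie no animals together.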

Other observations

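The mitochondrially encoded rows could not be set beside the nuclear subunits as a group. In 4 libraries (Chow+C 1, Chow+C 3, Chow+T 2 and WSD+T 2) MT-CO3 was at 3.75 to 10.8 CPM, against 2141 to 29886 CPM in the other 15, and MT-CO1, MT-ATP8 and MT-ND5 were likewise low. MT-CYB (3925 to 9056 CPM) and MT-CO2 (3110 to 6628 CPM) overlapped the other libraries. A row without a symbol, ENSMMUG00000045979, stood at 1361 to 3331 CPM in the same 4 libraries and at 0 to 860 CPM in the others, with a median of 0.32. The mean log2 CPM of the 34 nuclear subunits in these libraries was 6.10, 5.69, 5.67 and 6.21, so they included both high and low values. The labels give no batch, and the reason for the split was not tested.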
